A study of Mus musculus with 4 samples.

Results

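The genes examined were 46 genes of T cell identity, signalling and effector function: the chains of the T cell receptor complex, the CD4 and CD8 coreceptors, adhesion and costimulatory receptors, signalling proteins, transcription factors, checkpoint receptors and cytokines. The rule picked them by gene symbol and used no difference between the groups, but it took the brightest probe of each gene. The genes were chosen with earlier results of these data known. All 46 were among the 20832 genes that a probe of the array could be named for. RNA came from BALF cells, that is, cells washed out of the airspaces of the lung, which the sample records call alveolar macrophages, and was measured on 4 arrays with 1 color and probes for the whole mouse genome. The mice were 8 to 10 weeks old, of a line of mixed background that had been backcrossed a single time to C57BL/6J, and were given bleomycin into the peritoneum, 0.035 U/g at each of 2 injections a week, with collection on day 22 by the sample records. The groups were wild-type littermates and S1pr2-/- littermates with a targeted disruption of S1pr2 in every cell, with 2 arrays each, and both groups had bleomycin, so no comparison with saline was possible here. Each array was an independent RNA sample by the methods. The study pooled cells of several mice for other BALF-cell RNA samples, and whether it did so for the arrays is not given in the sources used here. The sample records speak of instillation and day 22, while the methods give intraperitoneal injections over a longer course, so route and timing differ between these sources. In such bulk RNA, fewer T cells and less RNA per T cell cannot be told apart.

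All 4 arrays lay on 1 slide with 1 scan, so no batch could be tested. Between 67.6% and 72.2% of the probes measured on an array were well above background, and no spot was saturated. The S1pr2 probe was examined first as a check of the labels. Its log2 signal was -0.13 and -0.16 for wild-type against 2.67 and 2.54 for labelled S1pr2-/-, a difference of 2.75 (SE 0.072, adjusted p = 0.333 from limma), which goes against the label. Whether this probe lies within the disrupted part of the gene was not determined. The arrays are therefore called "labelled S1pr2-/-" throughout, and every direction below follows those labels.

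A T cell recognises peptide on an MHC molecule through its T cell receptor, which has no signalling part of its own and relies on the CD3 chains and on CD247, the zeta chain. CD4 or CD8 binds the MHC molecule and brings the kinase LCK, which phosphorylates the CD3 and zeta chains. ZAP70 then docks there and phosphorylates the adaptor LAT, from which the calcium, RAS and protein kinase C branches start. CD28 and ICOS add a second signal, while CTLA4 and PD-1, the product of Pdcd1, restrain the response. T cells are a minor population of the normal airspace, where macrophages prevail, and they enter it in inflammation.

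Values are log2 of a probe's signal over the 75th percentile of its array. A value of 0 therefore equals that percentile, and a difference of -1 is a halved signal. A probe was tested if both arrays of a genotype, either of them, had it well above background. This left 27161 probes, and 45 of the 46 genes passed this filter. All 45 were well above background on all 4 arrays, so none of them entered through one genotype alone. Il21, a cytokine of follicular helper T cells, was well above background on 0 of 4 arrays and stayed untested.

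The T cell genes were, as a list, lower on the arrays labelled S1pr2-/-. The difference was below 0 for 43 of 45 genes, against 50.6% of all probes tested, and its median was -0.49 against -0.003 over all probes. With limma, no gene passed an adjusted p under 0.05 (0 of 45, where 0.0% of all probes passed), and the adjusted p of the 45 genes lay between 0.509 and 0.983. At an unadjusted p under 0.05, limma found 11 of 45 genes lower (24.4%), where 5.59% of all probes were lower by the same rule, and 0 of 45 higher, where 3.99% of all probes were higher. These 11 genes were Cd5, Cd6, Cd28, Lck, Trat1, Ubash3a, Sh2d1a, Themis, Prkcq, Gata3 and Ctla4. By the methods' t-test, 1 of 45 genes was lower at the unadjusted threshold and 0 after Benjamini-Hochberg adjustment, against 3.92% of all probes at the unadjusted one, and 0 of the 11 were kept. All 11 were also past the 1.5-fold threshold of the study's methods in this fit, a combination that 1.62% of all probes met.

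By size alone, 18 of 45 genes were lower by more than 1.5-fold (40.0%, against 3.62% of all probes) and 0 were higher by that much (against 1.15%). A difference of more than 2-fold was reached by 3 genes, Trat1, Ctla4 and Ifng (against 1.24% of all probes, a share that was not taken under the alternatives). This count was 12 without wild-type replicate 1, 14 without labelled S1pr2-/- replicate 1, 1 without labelled S1pr2-/- replicate 2, and 1 with normexp background correction, where Trat1 was at -0.93, Ctla4 at -0.71 and Ifng at -1.16. Both arrays labelled S1pr2-/- were below both wild-type arrays for 25 of 45 genes (55.6%, against 21.8% of all probes), and above both for 0 (against 20.0%).

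**Figure D1:**
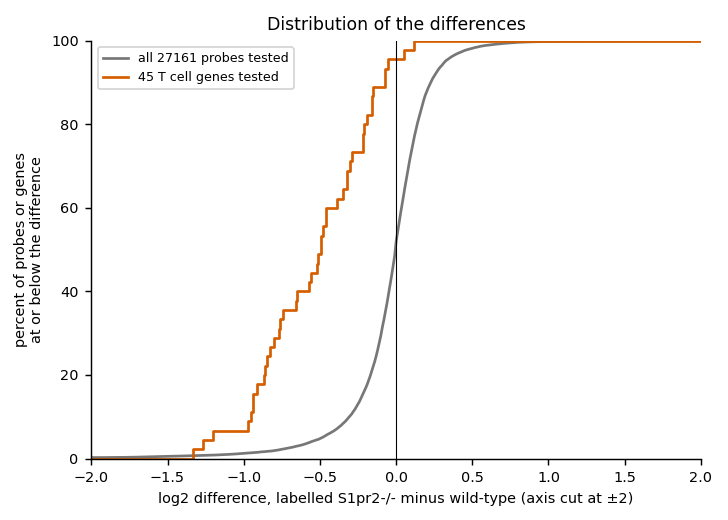
Percent of the 27161 probes tested (grey) and of the 45 T cell genes tested (orange) whose log2 difference, labelled S1pr2-/- minus wild-type, is at or below the value on the horizontal axis. The curve of the T cell genes lies to the left of that of all probes, with medians of -0.49 and -0.003.

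The arrays did not contribute equally. Labelled S1pr2-/- replicate 2 was the lowest of the 4 arrays for 39 of 45 genes, and wild-type replicate 2 was the highest for 28. Labelled S1pr2-/- replicate 2 was below both wild-type arrays for 41 genes, and replicate 1 for 27. These orders of single arrays were not counted over all probes, so how far they are particular to the T cell genes is not known. Taken against each gene's wild-type mean, the median shift of the list was -0.21 on labelled S1pr2-/- replicate 1 and -0.80 on replicate 2. The wild-type arrays lay at -0.08 and 0.08, a pair that mirrors itself because both make up the mean.

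The count of genes at an unadjusted p under 0.05 moved with each array, and without wild-type replicate 2 the share of T cell genes was below that of all probes. The share of all probes lower by more than 1.5-fold was 3.95% without labelled S1pr2-/- replicate 2 and 4.73% without labelled S1pr2-/- replicate 1. Without labelled S1pr2-/- replicate 2, limma found 6 genes lower and 1 higher (Klrg1, a receptor of terminally differentiated effector T cells and NK cells, by 0.35), the median difference was -0.21 and 8 genes were past 1.5-fold. Without labelled S1pr2-/- replicate 1, 21 genes were lower, the median was -0.80 and 33 genes were past 1.5-fold. The count was 5 without wild-type replicate 1 and 2 without wild-type replicate 2, namely Ubash3a and Ifng. The shares of all probes lower by the same rule in these 4 fits lay between 3.84% and 6.03%.

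**Figure D2:**
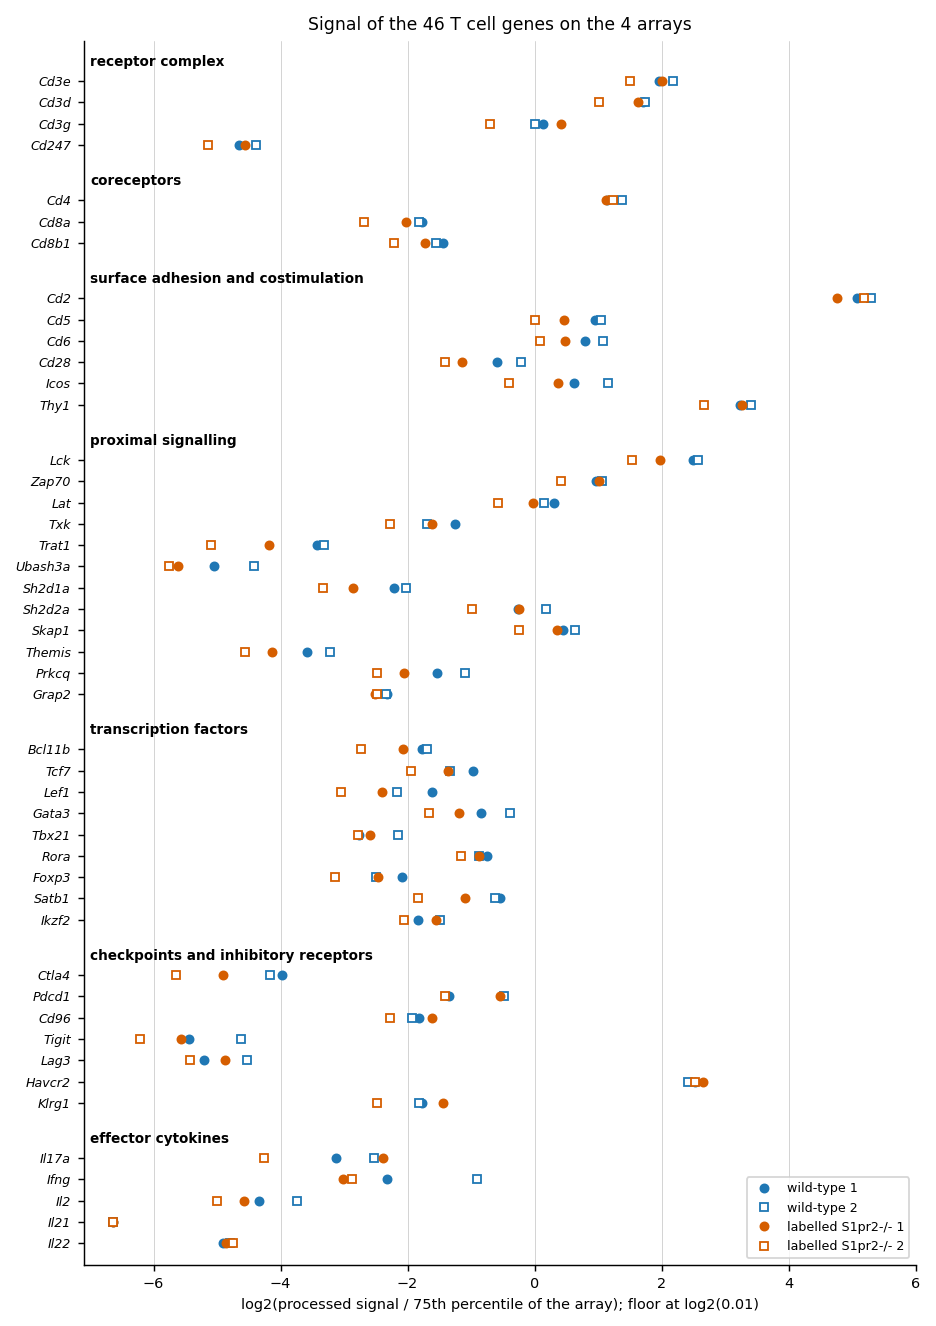
Log2 signal over the 75th percentile of the array for each of the 46 T cell genes, grouped by role, with wild-type arrays in blue, arrays labelled S1pr2-/- in orange, filled circles for replicate 1 and open squares for replicate 2. Labelled S1pr2-/- replicate 2 is the lowest point for 39 of the 45 tested genes, and Il21 sits at the floor on all 4 arrays.

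Probes for the receptor complex, whose chains define the T cell lineage, were well above background on every array. None of the 4 chains was past 1.5-fold or at an unadjusted p under 0.05, and their median difference was -0.33. Cd3e, the chain whose intracellular tail recruits adaptors early in the response, gave 1.96 and 2.18 on wild-type arrays against 2.00 and 1.5 on the arrays labelled S1pr2-/-. The groups overlapped, since labelled S1pr2-/- replicate 1 lay between the wild-type arrays (difference -0.32, SE 0.218). Cd3d, which pairs with CD3 epsilon, gave 1.70 and 1.74 against 1.63 and 1.02. These groups did not overlap, although replicate 1 lay close below the wild-type arrays (difference -0.40, SE 0.244). Cd3g, the third CD3 chain, gave 0.13 and 0.01 against 0.42 and -0.70, so that the arrays labelled S1pr2-/- lay on either side of the wild-type arrays (difference -0.21, SE 0.446). It was 0.35 without labelled S1pr2-/- replicate 2. Cd247 gave -4.66 and -4.39 against -4.56 and -5.15, with overlap (difference -0.33, SE 0.261). The mean of the 3 CD3 chains was 1.27 and 1.31 on the wild-type arrays, 1.35 on labelled S1pr2-/- replicate 1 and 0.61 on replicate 2, so replicate 2 alone was below the wild-type range.

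Cd3d and Cd3g are neighbours that face away from each other, with start sites 1355 bases apart, and their promoters are shown as those of the genes that define the cells. The 250 bases upstream of the start site follow, taken from RefSeq (build GRCm38.p6), 5′ to 3′ on the strand of the gene. Capitals mark letters that match the core motif of a factor among the genes studied: AGATAA for GATA3 and CTTTGA for TCF7 and LEF1, on either strand (TTATCT and TCAAAG).
Cd3d, chr9:44981536-44981785, plus strand: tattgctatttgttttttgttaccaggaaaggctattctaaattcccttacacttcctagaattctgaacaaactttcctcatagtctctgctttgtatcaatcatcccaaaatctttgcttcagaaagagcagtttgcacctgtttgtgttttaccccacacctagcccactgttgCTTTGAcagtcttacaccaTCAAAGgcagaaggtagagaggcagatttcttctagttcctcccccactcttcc
Cd3g, chr9:44980432-44980681, minus strand: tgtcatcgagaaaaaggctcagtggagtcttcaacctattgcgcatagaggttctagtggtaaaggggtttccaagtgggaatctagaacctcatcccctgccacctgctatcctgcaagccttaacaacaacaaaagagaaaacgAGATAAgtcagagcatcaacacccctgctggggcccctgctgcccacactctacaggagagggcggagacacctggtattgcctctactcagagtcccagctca

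The Cd3d window held 2 matches for TCF7 and LEF1, and the Cd3g window held 1 match for GATA3. Promoter sequence was given for 33 of the 46 genes, in 47 windows of this length. The GATA3 motif was in 10.6% of these windows and in 9.99% of all 32851 windows, and the TCF7 and LEF1 motif was in 14.9% and 13.8%. These are matches of letters, and no binding was measured.

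The coreceptors split in their values. Cd4, which binds MHC class II, gave 1.14 and 1.38 on wild-type arrays against 1.13 and 1.24 on the arrays labelled S1pr2-/-. The groups overlapped, with a difference of -0.08 and a 95% interval from -0.43 to 0.28, and it was 0.04 without wild-type replicate 2. A dimmer probe of Cd4 differed by -0.32 without overlap (SE 0.078, unadjusted p = 0.0223 and adjusted p = 0.509 from limma), so the Cd4 probes disagreed on whether the groups overlap. Cd8a, a chain of the coreceptor for MHC class I, gave -1.77 and -1.82 against -2.03 and -2.69. Cd8b1, its partner on conventional CD8 T cells, gave -1.44 and -1.56 against -1.72 and -2.22. For both CD8 chains the arrays labelled S1pr2-/- lay below both wild-type arrays (differences of -0.56, SE 0.264, and -0.47, SE 0.205), and neither reached an unadjusted p under 0.05. Whether the differences of Cd4 and the CD8 chains themselves differ was not tested.

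Of the adhesion and costimulatory receptors, 3 of 6 were lower at an unadjusted p under 0.05 (against 5.59% of all probes), with a median of -0.71 for the group. Cd28, the main costimulatory receptor of naive T cells, gave -0.60 and -0.22 on wild-type arrays against -1.15 and -1.41 on the arrays labelled S1pr2-/-. The groups did not overlap, and the difference was -0.87 (SE 0.189, 1.83-fold lower, unadjusted p = 0.0158 from limma). Cd5, which dampens receptor signalling, gave 0.95 and 1.05 against 0.46 and 0.00, again without overlap (difference -0.77, SE 0.189, unadjusted p = 0.0226 from limma). Cd6, a relative of CD5 that binds ALCAM, gave 0.80 and 1.07 against 0.47 and 0.08, also without overlap (difference -0.66, SE 0.19, unadjusted p = 0.0354 from limma). Icos, an inducible receptor of the CD28 family, gave 0.62 and 1.16 against 0.36 and -0.41. Its difference of -0.92 was larger than that of Cd28, but the spread within each genotype was larger as well (SE 0.37, unadjusted p = 0.0827 from limma). The remaining genes, the adhesion receptor Cd2 and the surface glycoprotein Thy1, overlapped between genotypes, with differences of -0.22 and -0.35.

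The signalling proteins next to the receptor held 6 of the 11 genes that passed the unadjusted threshold, out of 12 tested (against 5.59% of all probes), and all 12 differences were below 0 (median -0.67). On labelled S1pr2-/- replicate 1, where the receptor chains had a median shift of -0.05, the signalling genes had one of -0.40. The shift on replicate 2 was -0.66 for the receptor chains and -0.97 for the signalling genes. The difference between these groups of genes was not tested.

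Lck, the kinase that starts the phosphorylation of the receptor, gave 2.49 and 2.57 on wild-type arrays against 1.98 and 1.53 on the arrays labelled S1pr2-/-. Both of the latter were below both wild-type arrays, by 1.71-fold on average (difference -0.77, SE 0.186, unadjusted p = 0.0211 from limma). Zap70, the kinase that follows, gave 0.97 and 1.06 against 1.01 and 0.41. Here replicate 1 lay between the wild-type arrays (difference -0.30, SE 0.243), and the difference was 0.00 without labelled S1pr2-/- replicate 2. Prkcq encodes protein kinase C theta, which links the receptor to NF-kappa B. It gave -1.53 and -1.09 against -2.05 and -2.48, with no overlap (difference -0.95, SE 0.244, unadjusted p = 0.0255 from limma). Themis, a protein needed in thymocyte selection, gave -3.58 and -3.22 against -4.14 and -4.56. It was 1.92-fold lower, again without overlap (difference -0.94, SE 0.223, unadjusted p = 0.0202 from limma).

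Sh2d1a encodes SAP, the adaptor of the SLAM family receptors. It gave -2.22 and -2.02 on wild-type arrays against -2.86 and -3.33 on the arrays labelled S1pr2-/-. The groups were separate, and its unadjusted p was the lowest of the 45 genes (difference -0.97, SE 0.206, unadjusted p = 0.0146 from limma). Ubash3a, a phosphatase-like brake on receptor signalling, gave -5.05 and -4.42 against -5.61 and -5.75, without overlap (difference -0.94, SE 0.258, unadjusted p = 0.0304 from limma). Trat1 encodes TRIM, a transmembrane adaptor that associates with the receptor complex. It gave -3.42 and -3.31 against -4.18 and -5.10. Both arrays labelled S1pr2-/- were below both wild-type arrays, and the difference of -1.28 was the largest of the group (SE 0.364, 2.43-fold lower, unadjusted p = 0.034 from limma). Of the other signalling genes, Lat, Skap1 and Grap2 did not overlap between genotypes and Txk and Sh2d2a did, with differences between -0.57 and -0.16.

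**Figure D3:**
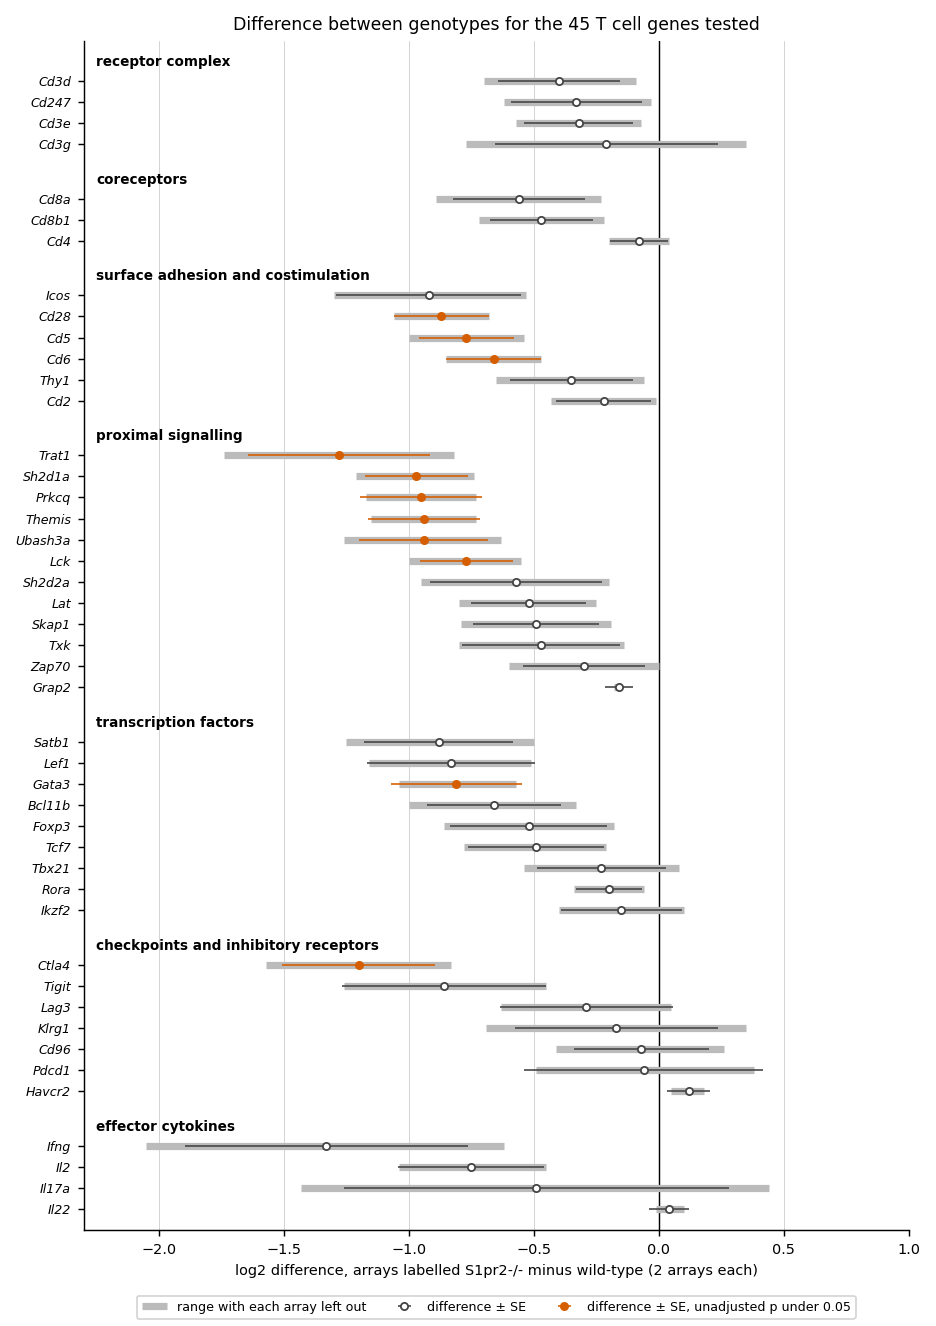
Log2 difference, labelled S1pr2-/- minus wild-type, with its standard error for each of the 45 T cell genes tested, sorted within each role; filled orange points have an unadjusted p under 0.05 and grey bars give the range of the difference with each array left out. Filled points lie in the surface (3), signalling (6), transcription factor (1) and checkpoint (1) groups, and 43 of 45 points lie below 0.

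Trat1 and Ctla4 had the largest differences among the 11 genes at an unadjusted p under 0.05, and their upstream windows are shown for that reason. Besides the motifs above, capitals mark AGGTGTGA for T-bet, the product of Tbx21, and AGGTCA for RORA, on either strand (TCACACCT and TGACCT).
Trat1, chr16:48772063-48772312, minus strand: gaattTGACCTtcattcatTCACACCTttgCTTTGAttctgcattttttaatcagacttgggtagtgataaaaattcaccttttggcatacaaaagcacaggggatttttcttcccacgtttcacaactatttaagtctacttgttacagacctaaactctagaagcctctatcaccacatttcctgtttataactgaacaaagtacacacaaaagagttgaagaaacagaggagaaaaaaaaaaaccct
Ctla4, chr1:60908775-60909024, plus strand: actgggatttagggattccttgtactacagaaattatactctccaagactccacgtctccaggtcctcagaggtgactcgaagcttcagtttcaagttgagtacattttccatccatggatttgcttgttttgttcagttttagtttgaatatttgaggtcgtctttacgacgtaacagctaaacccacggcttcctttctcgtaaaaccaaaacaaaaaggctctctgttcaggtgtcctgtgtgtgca

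The Trat1 window held 1 match each for RORA, T-bet and TCF7 with LEF1, and the Ctla4 window held 0 matches for the 4 motifs. The T-bet motif was in 2.13% of the windows of the T cell genes and 1.12% of all windows, and the RORA motif was in 19.1% and 14.0%. A window without a match shows only that these letters are not in it.

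All 9 transcription factors tested had differences below 0 (median -0.52), and 1, Gata3, was at an unadjusted p under 0.05. GATA3 directs T helper 2 cells and is needed for T cell development. Gata3 gave -0.85 and -0.39 on wild-type arrays against -1.19 and -1.66 on the arrays labelled S1pr2-/-, which did not overlap (difference -0.81, SE 0.262, 1.75-fold lower, unadjusted p = 0.048 from limma). Tbx21, the factor of T helper 1 cells, gave -2.77 and -2.15 against -2.59 and -2.78. The groups overlapped (difference -0.23, SE 0.258), and without wild-type replicate 2 the difference was 0.08. Foxp3, the factor of regulatory T cells, gave -2.09 and -2.49 against -2.47 and -3.15. Labelled S1pr2-/- replicate 1 lay just above the lower wild-type array, so these groups overlapped too (difference -0.52, SE 0.314).

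Among the factors of T cell development, Satb1, Lef1 and Bcl11b were past 1.5-fold. Satb1, a chromatin organiser of T cells, gave -0.55 and -0.62 against -1.09 and -1.83 (difference -0.88, SE 0.298). Lef1, a partner of TCF7 in naive T cells, gave -1.62 and -2.17 against -2.40 and -3.05 (difference -0.83, SE 0.335). Bcl11b, which sets T cell commitment, gave -1.78 and -1.70 against -2.07 and -2.74 (difference -0.66, SE 0.267). In all 3 genes the genotypes did not overlap, but the unadjusted p from limma lay between 0.0538 and 0.082. Tcf7 did not overlap either (difference -0.49), while Rora and Ikzf2 did (-0.20 and -0.15).

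Of the checkpoint and inhibitory receptors, 6 of 7 had differences below 0, from -1.20 for Ctla4 to -0.06 for Pdcd1, and the median was -0.17. On labelled S1pr2-/- replicate 1 their median shift was 0.18, above the wild-type mean. Ctla4, the inhibitory counterpart of CD28, gave -3.97 and -4.17 on wild-type arrays against -4.90 and -5.64 on the arrays labelled S1pr2-/-. The groups were apart, with a difference of -1.20 (SE 0.306, 2.30-fold lower, unadjusted p = 0.025 from limma). Tigit, a receptor for the poliovirus receptor family, gave -5.44 and -4.63 against -5.57 and -6.21. The groups did not overlap, but wild-type replicate 1 and labelled S1pr2-/- replicate 1 were close (difference -0.86, SE 0.408). Pdcd1 gave -1.35 and -0.49 against -0.55 and -1.41, so each genotype held a high and a low array (difference -0.06, SE 0.478). Havcr2, which encodes TIM-3 and is made by macrophages as well as by T cells, was one of the 2 genes with a difference above 0. It gave 2.53 and 2.41 against 2.65 and 2.52, with overlap and a 95% interval of the difference from -0.15 to 0.38. Cd96, Lag3 and Klrg1 overlapped, with differences between -0.29 and -0.07.

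Among the cytokines, the interferon gamma gene had the largest difference of all 45 genes and a wide error. Ifng gave -2.33 and -0.90 on wild-type arrays against -3.02 and -2.87 on the arrays labelled S1pr2-/-. The arrays labelled S1pr2-/- were close to each other and below both wild-type arrays, which lay far apart, and the difference of -1.33 (SE 0.566, 2.52-fold lower) had an unadjusted p of 0.0922 from limma. Without wild-type replicate 2 the difference was -0.62. Ifng is among the genes that the study listed from these same arrays, so its direction there is no independent evidence. Il17a, the cytokine of T helper 17 and gamma delta T cells, gave -3.13 and -2.53 against -2.39 and -4.26. Its arrays labelled S1pr2-/- were the highest and the lowest of the 4 (difference -0.49, SE 0.769), and the difference was 0.44 without replicate 2. Il2, the T cell growth factor, gave -4.34 and -3.74 against -4.57 and -5.00, with no overlap (difference -0.75, SE 0.292, unadjusted p = 0.0762 from limma). Il22, which acts on epithelium, lay between -4.90 and -4.75 on all 4 arrays, with a difference of 0.04.

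Of the 46 genes, 11 had a second, dimmer probe, and 10 of these passed the filter. All 10 had the same sign as the brighter probe, and the largest gap between the differences of a gene's probes was 0.42, at Sh2d2a. The second probe of Cd8a differed by -0.57, close to the -0.56 of the brighter probe, with an unadjusted p of 0.0421 from limma. The second probe of Themis was well above background on 0 of 4 arrays.

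Other genes of the T cell receptor pathway, many of them also made by other blood cells, lay near 0. Of 16 tested, 0 were lower and 0 were higher at an unadjusted p under 0.05 with limma (none with an adjusted p under 0.05), and the median difference was 0.01. Fyn, a SRC family kinase related to LCK, gave -0.89 and -0.79 on wild-type arrays against -0.81 and -0.67 on the arrays labelled S1pr2-/- (difference 0.10, SE 0.086). Nfatc2, a calcium-driven transcription factor, gave 1.01 and 1.14 against 1.52 and 0.95 (difference 0.16, SE 0.236), and its difference was -0.13 without labelled S1pr2-/- replicate 1. Ptpn22, a phosphatase of blood cells that restrains receptor signalling, had a difference of -0.72 without overlap (SE 0.277).

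Of 20 further genes of T cell state that were tested, 4 were lower at an unadjusted p under 0.05 with limma and 0 were higher (against 5.59% and 3.99% of all probes), with a median of -0.26. Ccr7, Tnfrsf4 and Tnfrsf18 were among these. Tnfrsf4, the costimulatory receptor OX40, gave 1.01 and 1.28 on wild-type arrays against 0.52 and 0.11 on the arrays labelled S1pr2-/-, without overlap (difference -0.83, SE 0.196, unadjusted p = 0.0203 from limma). Eomes, a T-box factor of memory CD8 T cells and NK cells, gave -2.93 and -2.08 against -3.28 and -3.76 (difference -1.02, SE 0.385, unadjusted p = 0.0705 from limma). Il12rb2, a chain of the IL-12 receptor, gave -3.58 and -3.38 against -3.46 and -3.29, with overlap (difference 0.11). Cd40lg and Cd160 were not well above background on any array.

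Markers of other cells were read on the same arrays, since several T cell genes are also made elsewhere: Gata3, Icos, Rora, Thy1 and Klrg1 by innate lymphoid cells, and Tbx21, Cd96, Tigit and Klrg1 by NK cells. Of 10 alveolar macrophage markers, 0 were lower or higher at an unadjusted p under 0.05 with limma. Their summed level, in units of the 75th percentile, was 649 and 692 for wild-type against 647 and 675 for labelled S1pr2-/-. This is the cell type of the labels, and its signal was close across the 4 arrays. Of 6 markers of monocyte-derived macrophages, 0 passed either way, with summed levels of 41.7 and 33.4 against 54.0 and 41.6. Their median difference was 0.43, and 2 were higher by more than 1.5-fold (against 1.15% of all probes). Both arrays labelled S1pr2-/- were above both wild-type arrays for 3 of these 6 markers (against 20.0%) and below both for 1. Of 10 NK cell markers, 0 were at an unadjusted p under 0.05 either way. Their sum was 7.9 and 14.7 against 10.1 and 7.5, highest on wild-type replicate 2, as were 28 of the T cell genes. Gzma and Gzmb, granzymes of both NK and cytotoxic T cells, were highest on wild-type replicate 2 as well, with 2.81 and -1.31. So were Nkg7, Prf1, Klre1 and Ncr1. The NK receptors Klrb1c, Klrk1, Klrd1 and Klra8 were instead highest on labelled S1pr2-/- replicate 1. Gzma and Nkg7 had the brightest signals of the list and weigh most in its sum.

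Of 7 B cell markers, 0 passed, and their sum was highest on wild-type replicate 1 (2.93 and 1.6 against 1.76 and 1.44). Their median difference was -0.66, larger than the -0.49 of the T cell genes. By size, 4 of the 7 were lower and 1 was higher by more than 1.5-fold (against 3.62% and 1.15% of all probes). All 7 overlapped between genotypes, where 21.8% of all probes were lower and 20.0% higher without overlap. Of 8 markers of group 2 innate lymphoid cells, Il13, Areg and Il17rb were lower at an unadjusted p under 0.05 with limma (against 5.59% of all probes). The sums were 3.07 and 5.83 against 2.57 and 2.42. All 5 eosinophil markers were lower by the same rule, with differences from -5.58 for Gata1 to -3.73 for Il5ra and sums of 2.54 and 7.95 against 0.121 and 0.209. Epx, which defines these cells, was at the floor on labelled S1pr2-/- replicate 1 and at -6.50 on replicate 2, so the size of its difference is not measured. Il13 was at the floor of -6.64 on both arrays labelled S1pr2-/-, so the size of its difference is not measured either. Epx and Il13 were each well above background on 3 of 4 arrays, so they passed the filter through 1 genotype alone. Their places in the counts above are therefore no independent evidence. Gata1 was close to the floor on labelled S1pr2-/- replicate 1 (-6.45), which makes the size of its difference uncertain. Among 7 neutrophil markers, Cxcr2 and Csf3r were lower (against 5.59% of all probes), with sums of 79.6 and 76.3 against 69.2 and 62.6. Among 7 epithelial markers, Krt18 was lower by the same rule, with sums of 30.5 and 33.6 against 24.5 and 40.2. Both arrays labelled S1pr2-/- were below both wild-type arrays for 5 of 7 epithelial, 4 of 7 neutrophil and 5 of 8 innate lymphoid markers. This held for 21.8% of all probes. The median differences of these lists were -0.34, -0.28 and -0.49, so a lower median was not particular to the T cell genes. Of 5 dendritic cell markers 0 passed, with sums of 1.31 and 1.47 against 2.0 and 1.5, and of 5 mast cell and basophil markers Mcpt8, Fcer1a and Ms4a2 were not well above background on any array. The part of these cells in the T cell gene differences was not tested.

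**Figure D4:**
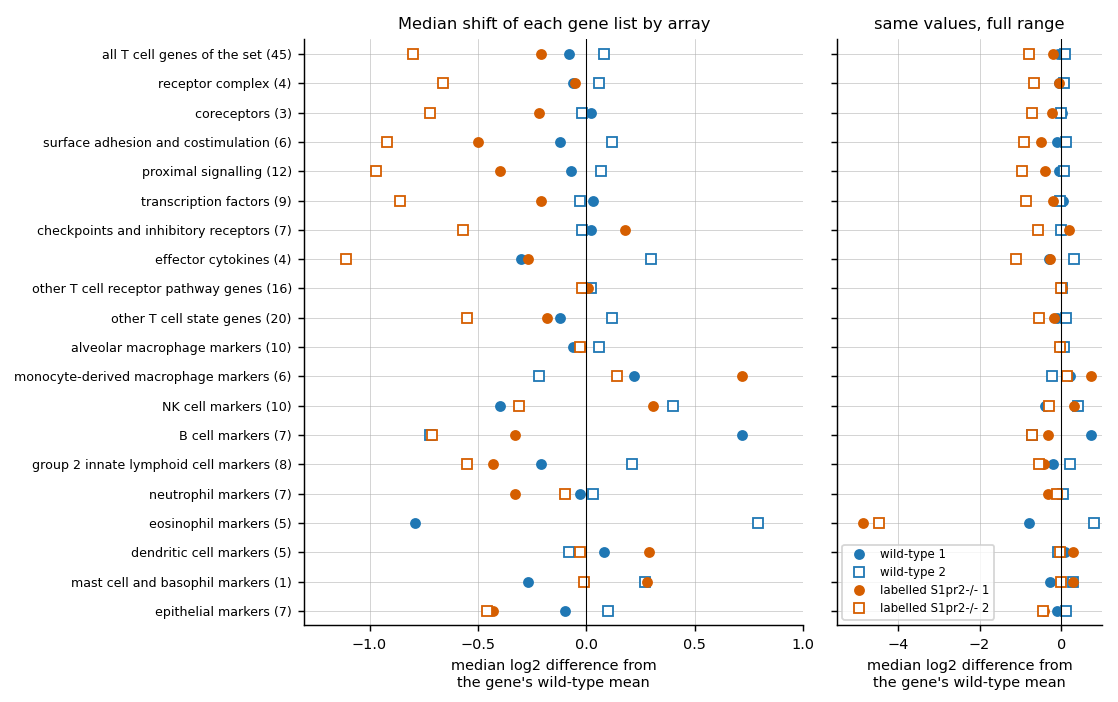
Median log2 difference from each gene's wild-type mean on each array, for the T cell genes by role, other T cell genes and markers of other cells, with the number of genes tested in brackets; the right panel shows the same values over the full range. The signalling genes lie at -0.40 and -0.97 on the arrays labelled S1pr2-/-, the alveolar macrophage markers at -0.03 on both, and the eosinophil markers far to the left on both.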

How the data were processed

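BALF-cell RNA (200 ng per sample) was labeled with Cy3 and hybridized to Agilent whole mouse genome arrays. The authors deposited the scanner intensity of each spot, background-corrected by Feature Extraction (version 10.7.3.1 by the methods, 11.0.1.1 by the file headers), and a table of their normalized log2 values, which was used only as an alternative; the latter was centred on the wild-type arrays (column medians 0.023 and -0.023 for wild-type, -0.058 and -0.035 for labelled S1pr2-/-). Processed intensity was divided by the 75th percentile of non-control spots (2489 to 2817 units), floored at 0.01 and log2-transformed. Spots with outlier flags (115 to 273 per array) were left out and spots of a probe averaged. Accessions named 69.6% of 39429 probes through a RefSeq table (GRCm38.p6). The brightest probe stood for a gene. A linear model without covariates was fitted to 27161 probes (lmFit and eBayes of limma 3.58.1, R 4.3.3), with Benjamini-Hochberg adjustment over all of them. The procedure was also run on simulated data with independent noise for each probe. That simulation held no shift shared by many genes of an array, so it does not bear on the counts above. Intervals are 95%. The number of arrays limits the precision, and the smallest p of an exact two-sided permutation test with 2 arrays against 2 is 0.333. P-values measure only the spread between these RNA samples.

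The genes and lists were chosen with earlier results of these data known. Named with values were the receptor and coreceptor chains, Lck, Zap70, Gata3, Tbx21, Foxp3, Ifng, Il17a, each further gene past 1.5-fold or at an unadjusted p under 0.05, and the 3 pathway genes with the largest differences each way; others named were chosen after their values were seen. Some genes that the lists hold are not reported here. The constant-region genes of the T cell receptor (Trac, Trbc1, Trbc2, Trdc), Cd68, Ly6c2 and Itgae were listed but not matched by accession. Alternatives were quantile normalization, the percentile over detected probes, normexp (offset 50), the authors' table, no floor, no filter, a stricter filter, a trended variance, spots kept despite a flag, the t-test of the methods, a replicate block, each array left out and second probes.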

Additional observations from a re-analysis of the deposited data

How the results depend on the processing

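The count of 11 T cell genes lower at an unadjusted p under 0.05 was 18 with normexp background correction, 4 with the percentile over detected probes, 3 with no filter and 1 with the methods' t-test, while 0 genes had an adjusted p under 0.05 from limma or from the methods' t-test under any alternative. It ranged from 2 to 21 with each array left out, the count of genes higher from 0 to 1, and the median difference of -0.49 from -0.80 to -0.21. Over all probes, the shares lower by the same rule were 6.5% with normexp, 5.28% with the percentile over detected probes, 4.04% with no filter and 3.92% with the t-test, and the T cell genes were at 40.0%, 8.89%, 6.67% and 2.22% in the same order, so with the methods' t-test their share was below that of all probes. It was below that of all probes without wild-type replicate 2 as well. The causes were not tested. Of the 11 genes, 0 were kept with the methods' t-test, 3 with the percentile over detected probes, 2 with no filter, and between 1 (without wild-type replicate 2) and 9 with an array left out. All 11 were kept with normexp, the authors' table, no floor, the stricter filter, flagged spots kept and the trended variance, and 10 of them with quantile normalization. The sizes of 2 dim probes fell short of 1.5-fold under 2 alternatives. Ubash3a went from -0.94 to -0.54 with normexp and -0.56 with the percentile over detected probes. Tigit went from -0.86 to -0.43 and -0.34. Across the alternatives that used all 4 arrays, 0 of 394 differences of the 35 named genes turned. With an array left out, 6 of 140 did: Cd3g (0.35), Zap70 (0.00, just above 0) and Il17a (0.44) without labelled S1pr2-/- replicate 2, Cd4 (0.04) and Tbx21 (0.08) without wild-type replicate 2, and Nfatc2 (-0.13) without labelled S1pr2-/- replicate 1. At the other end of their ranges, Cd3g reached -0.77, Cd4 -0.20, Zap70 -0.60, Tbx21 -0.54, Il17a -1.43 and Nfatc2 0.45. A lone array was assumed to vary like the other genotype.

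The labels number the samples of both genotypes, and the deviations of same-numbered arrays correlated at 0.187 over 2 pairs, too few to pair them. With the replicate number as a block, 10 T cell genes were lower at an unadjusted p under 0.05, 5 of them among the 11, the median was -0.49 and 0 had an adjusted p under 0.05. Arrays of 2 per genotype limit every value here, and Il21, Cd40lg and Cd160 had no signal well above background.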
